A study of Drosophila melanogaster with 3 samples.

Results

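The 10 genes described here encode nuclear receptors of the ecdysone cascade of Drosophila melanogaster: EcR, usp, Eip75B, Eip78C, Hr3, Hr4, Hr39, ftz-f1, Hr78 and Hnf4. They were taken by name, as members of this cascade, out of 13945 protein-coding genes on the 6 chromosome arms; the rule uses no measured value, but the set was proposed with earlier results of these data known. The study mapped where the protein achi sits on chromatin. Whole prepupae of both sexes were pooled, from a transgenic line that stably carries achi with GFP at its C-terminus, and the chromatin was precipitated with an antibody against GFP (ChIP-seq). All 3 samples are biological replicates of this 1 group. They share the transgene and the stage, their age is given as unknown, untagged flies were not analysed here, and a whole animal mixes all of its tissues.

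achi is a homeodomain protein of the TGIF family, best known with its neighbour vis for a role in spermatogenesis. Ecdysone is the steroid hormone that times moulting and metamorphosis. It binds the heterodimer of EcR and usp, which switches on early genes, many of them nuclear receptors themselves, and these act on one another and on later receptors, so that pulses of hormone are turned into a sequence of receptors. The prepupa lies between the pulse that forms the puparium and the pulse that starts the pupa, the interval in which this relay runs.

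Binding was read from the authors' optimal list of summits, the single positions of highest enrichment, in coordinates of dm6, the Release 6 assembly. A summit was counted for a gene when it lay in the gene body or within 5 kb of either end. Its rank is its place in the optimal list by the authors' signal value, 1 being the strongest. The replicates were set side by side as ranks within each replicate's own list of 30000 regions, and as many of the strongest regions of each as the optimal list has form its top list. Read depth is unknown from these files, and signal values are not compared between lists.

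All 10 genes had at least 1 summit in this window, where 55.9% of all protein-coding genes did. Most of these genes are long, and long windows have more room: all 8 members of at least 20 kb had a summit, and so did 80.4% of the 1013 protein-coding genes of that length. Together the 10 windows held 81 summits. Eip75B had 19 and Hr4 had 17, EcR and Hr3 had 10 each, Eip78C had 9, ftz-f1 had 7, Hr39 and Hnf4 had 3 each, usp had 2 and Hr78 had 1. The median was 8 summits per gene over the members and 1 over all protein-coding genes, and 9.5 against 3 among genes of at least 20 kb. Counted in each replicate's own top list, the same windows held 77, 88 and 85 summits in replicates 1, 2 and 3 (83.3 ± 5.69, SD, n = 3).

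The strongest summit of the set and the strongest in introns of 2 further genes are shown as sequences of 60 bases, each centred on the summit. They come from the RefSeq Release 6 genome, read 5′ to 3′ on the plus strand. They hold none of the words searched below, so no base is in capitals.
Hnf4 promoter, 2L:8709661-8709720: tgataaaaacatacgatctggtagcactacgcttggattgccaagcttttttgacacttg
Hr4 intron, X:1951885-1951944: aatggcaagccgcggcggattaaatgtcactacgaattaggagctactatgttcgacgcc
Eip78C intron, 3L:21253869-21253928: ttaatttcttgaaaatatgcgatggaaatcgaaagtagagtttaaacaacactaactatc
The Hnf4 summit ranked 91, the Hr4 summit 153 and the Eip78C summit 216 in the optimal list.

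**Figure D1:**
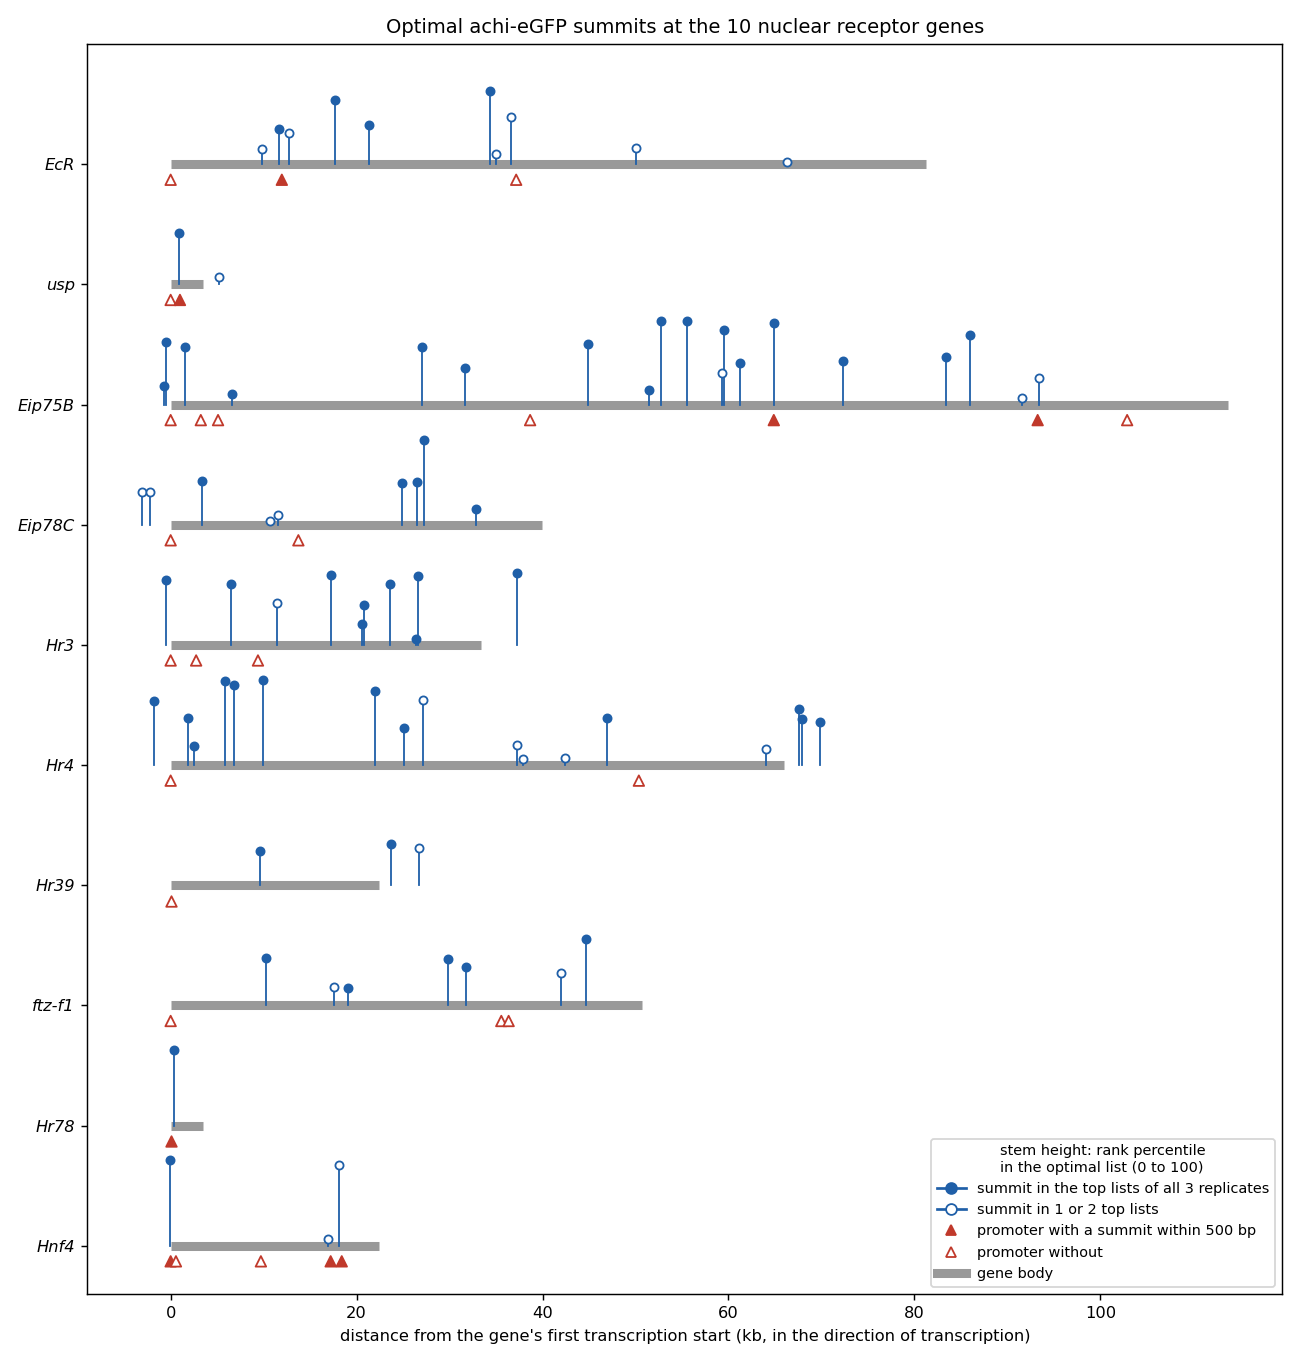
Optimal achi-eGFP summits along the 10 genes, drawn as the distance in kb from each gene's first transcription start in the direction of transcription. Stem height is the rank percentile in the optimal list, filled circles are summits inside top-list regions of all 3 replicates, filled triangles are promoters with a summit within 500 bp and open triangles promoters without; most stems stand inside the gene bodies, away from the triangles.

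The summits lay mainly in introns. Of the 81, 59 were intronic (72.8%, Wilson 95% interval 62.3 to 81.3), against 43.4% of all optimal summits, and 16 lay within 500 bp of a protein-coding transcription start (19.8%, 12.5 to 29.7), against 32.5%. Introns also make up more of this sequence, 66.4% of the member windows and 39.3% of the arms. Per length, the introns of the member windows held 1.65 summits per 10 kb, against 0.742 in introns of the whole arms. Their promoters held 2.63 per 10 kb, against 1.91 in promoters of the arms. The windows as a whole held 1.51 per 10 kb, against 0.672 for the arms. No summit lay in a coding exon, which allows a share of up to 3.70%, against 0.167% of all optimal summits. These intervals cover counting error only.

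**Figure D2:**
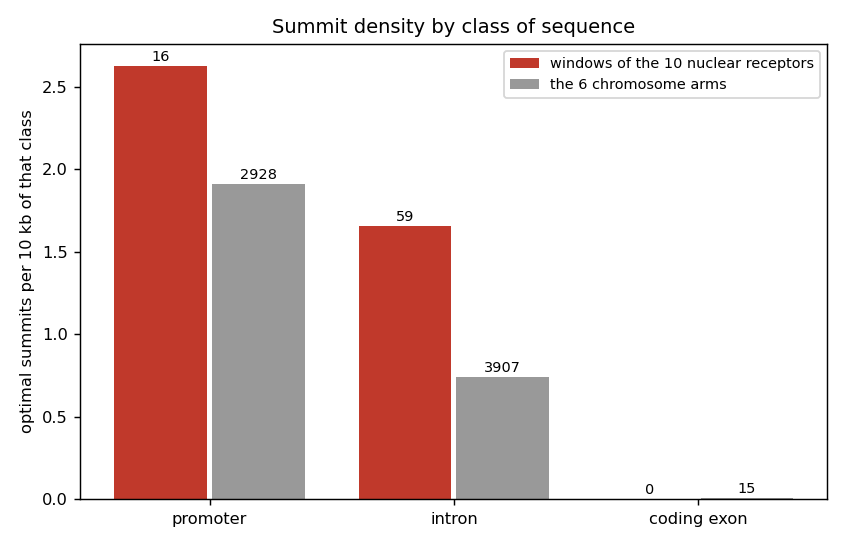
Optimal summits per 10 kb of promoter, intron and coding exon sequence in the windows of the 10 nuclear receptors (red, left of each pair) and on the 6 chromosome arms (grey). The number over a bar is its count of summits; the intron bars stand at 1.65 and 0.742 per 10 kb.

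By place in the gene, 58 of the 81 summits lay in an intron of the receptor gene itself. Of these, 11 lay in the first intron of its longest transcript and 47 in a later one. Another 8 lay at the receptor's own promoters, 8 at promoters of a neighbouring gene, 4 in the flanks outside any gene, 1 in the 5′ UTR of EcR, 1 in the 3′ UTR of Hr4 and 1 inside a neighbouring gene. A window is thus not the same as a receptor's own regulatory sequence, and the neighbours are named with each gene below.

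EcR encodes the subunit that binds ecdysone. The gene lies at 2R:6087873-6169087 on the minus strand, is 81.2 kb long and has 6 annotated transcripts from 3 promoters. Its strongest summit ranked 1342 and lay in the third intron of transcript EcR-RA, 34370 bp from the gene's start and 2795 bp upstream of the start of EcR-RC. The region ranked 1616, 2475 and 715 in replicates 1, 2 and 3, a mean percent rank of 94.7 ± 2.93 (SD, n = 3; 100 is the strongest). All 3 replicates therefore held it in their top lists. The middle promoter, of EcR-RD and EcR-RE, was the 1 bound promoter, through a summit 344 bp upstream of the start that ranked 5325. Its region ranked 6525, 5919 and 4674 in replicates 1, 2 and 3. The first promoter, of EcR-RA, had its nearest summit 9847 bp away, and the promoter of EcR-RB, EcR-RC and EcR-RG had one 523 bp away, just outside the 500 bp used. That summit ranked 4125, and its region ranked 10372, 3529 and 2528 in replicates 1, 2 and 3, so that replicate 1 placed it outside its top list. The other summits ranked 2294 to 8817, and 4 of the 10 lay in the top lists of all 3 replicates. Counting only summits in the top lists of both other replicates left 8 without replicate 1, 5 without replicate 2 and 4 without replicate 3. The 10 were not filtered by top list, so lower counts were built into this setting.

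usp encodes the partner of EcR, the fly relative of the vertebrate RXRs. It is a short gene, 3.51 kb at X:2038798-2042311 on the minus strand, inside the annotated body of Actn, the gene of alpha-actinin. Its promoter for usp-RA was bound by a summit 129 bp upstream of the start, which ranked 3689. The region ranked 3255, 3599 and 4507 in replicates 1, 2 and 3. The ranks were close to one another, but the same summit lies within 500 bp of a start of CG4313, so the promoter is shared. The other promoter, of usp-RB, lay 870 bp from that summit and had no summit of its own within 500 bp. The other summit in the window, ranked 8234, stood at a promoter of Actn, and its region ranked 16793, 6914 and 6107. Replicate 1 thus did not hold it in its top list. Counting only summits in the top lists of both other replicates left 1 at usp without replicate 2 or without replicate 3.

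Eip75B encodes E75, an early receptor that binds heme and can repress transcription by pairing with Hr3. The gene spans 114 kb at 3L:17950953-18064696 on the minus strand and has 7 promoters, which give rise to receptor forms with different N-termini. Its 19 summits included 16 that every top list held, and 2 promoters were bound. Many of the summits lay in the third intron of Eip75B-RF, 65240 bp long in a window of 124 kb. Its share of the summits was about its share of that length. The strongest ranked 274, 52793 bp from the gene's start and 12082 bp upstream of the start of Eip75B-RC. Its region ranked 282, 247 and 343 in replicates 1, 2 and 3. Another intronic summit, 55508 bp from the gene's start, ranked 329, with 360, 469 and 245 in the replicates. The promoter of Eip75B-RC followed it, with a summit 21 bp downstream of the start that ranked 545. Its region ranked 674, 378 and 702 in replicates 1, 2 and 3. These 3 summits were among the strongest of the optimal list, and each stayed within the first 1000 places in every replicate.

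The other bound promoter of Eip75B, of Eip75B-RA, was weaker. Its summit, 192 bp downstream of the start, ranked 6223, and its region ranked 5579, 11245 and 4971 in replicates 1, 2 and 3. Replicate 2 thus placed it outside its top list. Kept to summits in the top lists of both other replicates, 1 Eip75B promoter was bound without replicate 1 or without replicate 3. The remaining 5 promoters were not bound. The first, of Eip75B-RF, missed the distance by little, with a summit 553 bp upstream that ranked 2535, while those of RE, RB, RG and RD had their nearest summits 1734, 1538, 6212 and 9433 bp away. Promoters of 1 gene therefore differed widely in this readout.

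Eip78C encodes a close relative of E75 that is induced by ecdysone. The gene is 39.9 kb long, at 3L:21226609-21266503 on the plus strand, and neither of its 2 promoters was bound. Its strongest summit, shown as sequence above, ranked 216 and lay in the third intron of Eip78C-RA, 31685 bp long, at 13552 bp downstream of the start of Eip78C-RB. The region ranked 189, 196 and 281 in replicates 1, 2 and 3, a percent rank of 99.3 ± 0.171 (SD, n = 3). The other 8 summits were of middle or low strength, ranked 4425 to 8666. At 4 of those, replicate 1 placed the region outside its top list and below the other replicates: 2172 bp upstream of the gene's start, for example, the ranks were 25456, 3820 and 3921. All 3 top lists held 5 of the 9 summits. The top lists of both other replicates held 8 without replicate 1, 5 without replicate 2 and 5 without replicate 3. At the promoter of Eip78C-RB, replicate 3 alone had a top-list region, at rank 8940.

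Hr3 encodes the receptor that activates ftz-f1 in the prepupa and helps to shut down early genes. The gene is 33.4 kb long, at 2R:10203995-10237348 on the minus strand. It had 10 summits, 2.31 per 10 kb of its window, and 9 of them lay in the top lists of all 3 replicates. The summits 20545 and 20757 bp from the gene's start fell on regions of the same rank in every replicate. So did those at 26371 and 26572 bp, and each was counted separately. None of its 3 promoters was bound in the optimal list. The nearest summit to a promoter lay 515 bp upstream of the start of Hr3-RD, ranked 2298, and stood at the promoter of Hdc, the gene of histidine decarboxylase. Regions with a summit within 500 bp of the start of Hr3-RD ranked 3545 and 1398 in replicates 1 and 2, and replicate 3 listed none, although the region that overlaps the optimal peak ranked 2683 there. This summit therefore fell on either side of the 500 bp limit, depending on the replicate.

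The other 9 summits of the Hr3 window comprised 8 in the first intron of Hr3-RD, 26890 bp long, and 1 at the promoter of CG34221, downstream of the gene. The intron also lies within CG12912 and in part within CG46321, and the data do not assign its summits to any of the 3 genes. The strongest intronic summit ranked 1726, 17255 bp from the gene's start, and its region ranked 1591, 1722 and 2025 in replicates 1, 2 and 3. The summit at CG34221 was stronger, at rank 1482, with 2654, 1175 and 1379. A single intronic summit was uneven, with ranks of 15775, 2933 and 3036 at 11441 bp from the gene's start. Apart from it, each region overlapping an Hr3 summit was in every replicate's top list.

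Hr4 encodes another early-late receptor, a repressor of early ecdysone genes. The gene is 66.0 kb long, at X:1941940-2007956 on the plus strand, and had 17 summits, 2.24 per 10 kb of its window. Neither of its 2 promoters was bound: the one that 7 of its transcripts share had its nearest summit 1781 bp away, and that of Hr4-RE and Hr4-RF had one 3397 bp away. Its 3 strongest summits lay together in the second intron of Hr4-RK, 10387 bp long. The first of them, 5819 bp from the gene's start, ranked 209, and its region ranked 218, 220 and 215 in replicates 1, 2 and 3. The second, at 6772 bp, ranked 684, with 694, 855 and 555. The third, at 9975 bp and shown as sequence above, ranked 153, with 160, 184 and 129. The ranks of these 3 regions hardly differed between replicates. The same intron held 2 weaker summits, ranked 4080 and 7008.

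Further along Hr4, 7 intronic summits ranked 1345 to 8339, and 1 summit in the 3′ UTR ranked 7294. The UTR summit was uneven, at 4573, 8974 and 14540 in replicates 1, 2 and 3. The remaining 4 summits of the window belong as much to neighbours: 1 at the promoters of CG3587 and CG3857 upstream of the gene, 2 at the promoter of PIG-K and 1 at that of east downstream. In all, 12 of the 17 lay in the top lists of all 3 replicates.

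Hr39 encodes a receptor related to ftz-f1. The gene is 22.4 kb long, at 2L:21237250-21259675 on the plus strand, and of the 10 genes its strongest summit ranked lowest. Its single promoter was not bound, and the nearest summit to it was 9652 bp away, in the second intron of Hr39-RB. That summit ranked 5466, with 8187, 5399 and 4362 in replicates 1, 2 and 3. The strongest summit of the window ranked 4741, with 3712, 6741 and 5438, and stood at the promoter of the neighbour l(2)k14505. A summit inside the neighbour CG8671 ranked 5161, with 6047 and 4856 in replicates 1 and 3, and no region of replicate 2 overlapped it. No Hr39 summit was in the stronger 50% of the optimal list.

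ftz-f1 encodes the competence factor of the mid-prepupa, the receptor that is made after the hormone has fallen and that lets early genes respond again to the next pulse. The gene is 50.7 kb long, at 3L:18750607-18801309 on the minus strand. It had 7 summits, all intronic, and none of its 3 promoters was bound. The strongest ranked 2089, lay 44654 bp from the gene's start in the third intron of ftz-f1-RB, and had ranks of 3678, 1525 and 2067 in replicates 1, 2 and 3. In the second intron, 33674 bp long, 5 summits ranked 4024 to 7197. The first of these, 10284 bp from the gene's start, was the nearest to the promoter of ftz-f1-RB and ranked 7946, 3897 and 3172 in the replicates. At that promoter replicate 1 alone had a top-list region, at rank 5427, and at the promoter of ftz-f1-RC and ftz-f1-RD it also had one, at rank 7790. The other replicates had no top-list region there, and the nearest optimal summits lay 10284 and 3773 bp from these promoters. Of the 7 summits, 5 lay in the top lists of all 3 replicates.

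Hr78 encodes a receptor needed for ecdysone responses and growth in larvae. It is short, 3.48 kb at 3L:21494019-21497494 on the minus strand. Its 6 transcripts start within 1 promoter region, and the single summit lay there, 75 bp downstream of a start, at rank 1119. The region ranked 1410, 1026 and 993 in replicates 1, 2 and 3, a percent rank of 96.2 ± 0.773 (SD, n = 3). On this scale the median over all optimal summits was 84.9. Each replicate held the Hr78 region in its top list. The annotation also places a start of an antisense RNA gene, asRNA:CR43933, within 500 bp of this summit.

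Hnf4 encodes a receptor that governs lipid and sugar metabolism in the fly. The gene is 22.4 kb long, at 2L:8687226-8709611 on the minus strand, and 3 of its 5 promoters had a summit, the most of any member. The promoter of Hnf4-RE held the strongest summit of the whole set, ranked 91 and 80 bp upstream of the start. Its region ranked 69, 91 and 107 in replicates 1, 2 and 3, a percent rank of 99.7 ± 0.0636 (SD, n = 3). The promoter of Hnf4-RB had a summit 254 bp upstream that ranked 656, with 734, 533 and 714 in the replicates. Both were thus high in every replicate. The regions of Hnf4-RB in replicates 1 and 2 are narrow and stop short of the optimal summit, so that only replicate 3's region holds it. The third, of Hnf4-RF, was at the weak end of the list, ranked 8262, with 8954, 9278 and 9069 on either side of the end of the top list. For these reasons 1 of the 3 summits lay in the top lists of both other replicates when any single replicate was left out. The promoters of Hnf4-RA and Hnf4-RD were not bound, with summits 649 and 7198 bp away.

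**Figure D3:**
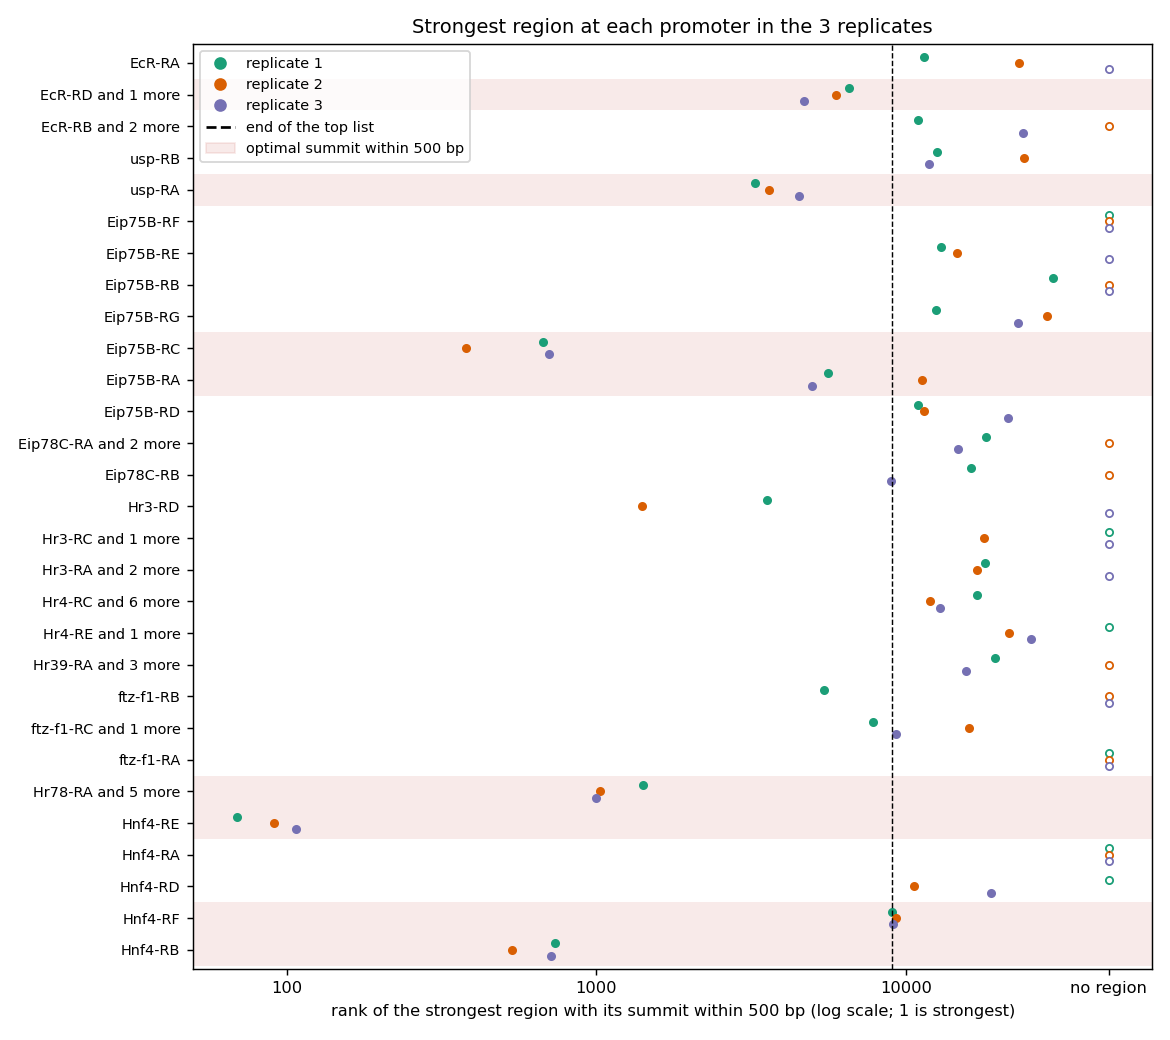
Rank of the strongest replicate region with its summit within 500 bp of each of the 29 promoters of the 10 genes, on a log scale with the strongest at the left; colours are the 3 replicates and open circles mean no region in that replicate's list. Shaded promoters have an optimal summit; the points of Hnf4-RE, Hnf4-RB and Eip75B-RC lie within the first 1000 places in every replicate.

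Over the 10 genes, 5 had a bound promoter, namely EcR, usp, Eip75B, Hr78 and Hnf4, where 23.2% of all protein-coding genes had one. These genes have more promoters than most, which gives more chances. Counted by promoter, with starts less than 500 bp apart taken as 1, 8 of 29 were bound (27.6%, Wilson 95% interval 14.7 to 45.7), against 20.9% of the 17156 promoters of all protein-coding genes, a share inside that interval. In the replicates' own top lists, 11, 7 and 8 of the 29 promoters were bound in replicates 1, 2 and 3 (8.67 ± 2.08, SD, n = 3), in 7, 6 and 6 genes. Of the 8 bound promoters, 6 were bound in the top lists of all 3 replicates. Of the 21 others, 4 were bound in at least 1 replicate's top list. Kept to summits that lay in the top lists of both other replicates, the bound promoters numbered 5 without replicate 1, 6 without replicate 2 and 5 without replicate 3, and the genes with one numbered 5 each time.

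Counts per gene were set beside genes with windows of similar length, within 25% of the member's own. Of 229 genes with windows like that of Hr4, 96.1% had fewer summits than Hr4, and their median was 4. The same share was 93.0% of 511 genes for Hr3, 88.7% of 444 for Eip78C and 87.8% of 98 for Eip75B. These 4 genes had the highest such shares of the 10. The share was 75.2% of 343 genes for ftz-f1, 75.0% of 160 for EcR and 73.2% of 11310 for usp. It was 56.0% for both Hr39 and Hnf4, of 766 and 768 genes, and 48.9% of 11297 for Hr78, which places the last 3 in the middle of genes of their size. The genes were counted once each, their windows can overlap, and no test was made of this.

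**Figure D4:**
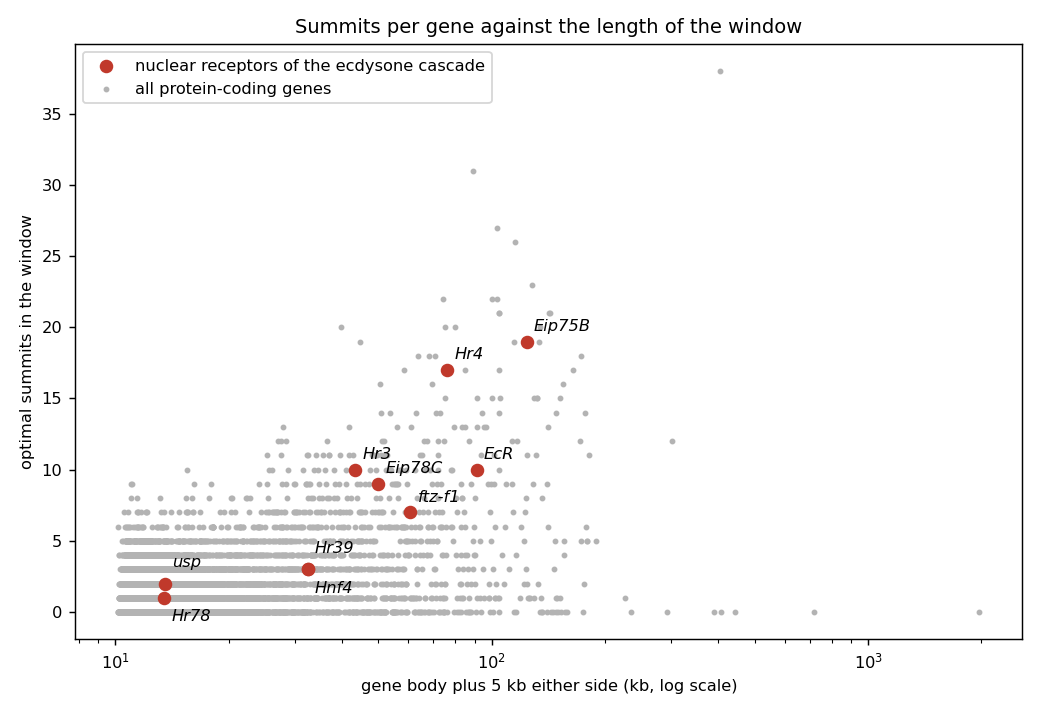
Optimal summits in the window of each protein-coding gene against the length of the window in kb on a log scale, with the 10 nuclear receptors in red and all protein-coding genes in grey. Hr4 with 17, Eip75B with 19 and Hr3 with 10 summits lie above most genes of similar length, though other genes reach as many or more; Hr39 and Hnf4, with 3 each, lie within the mass of genes.

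Strength did not separate the summits of these genes from the list as a whole. The median rank percentile, 100 being the strongest, was 49.3 over the 81 summits, just below the middle of the list. At promoters it was 61.7 over 16 summits, against 58.0, and elsewhere 47.8 over 65 summits, against 46.8. The strongest 1000 places held 9 of the 81 (11.1%), the share they hold of the whole list (11.1%). They lay at 4 genes, 3 each at Eip75B and Hr4, 2 at Hnf4 and 1 at Eip78C, and 6 of the 9 lay in introns. The other 6 genes had their strongest summits at ranks from 1119 at Hr78 to 4741 at Hr39.

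Recovery across replicates was measured as the share of summits that lay inside a top-list region. It was 81.5%, 90.1% and 90.1% of the 81 in replicates 1, 2 and 3 (87.2 ± 4.99, SD, n = 3), against 86.8%, 87.7% and 88.7% of all optimal summits (87.7 ± 0.962). In all 3 top lists together lay 56 of the 81 (69.1%, Wilson 95% interval 58.4 to 78.1), against 72.1% of all optimal summits. None of the 81 was missing from every top list, which allows a share of up to 3.70%. When a top-list region had only to overlap the peak, 59 of the 81 were found in all 3 replicates (72.8%), against 75.5% of all optimal peaks. Replicate 1 was the lowest for these genes, and it gave the lowest rank at the uneven summits of usp, Eip78C and Hr3 named above, while replicate 2 did so at the Eip75B-RA promoter and replicate 3 in the 3′ UTR of Hr4. The optimal list was made from these same replicates and all lists share 1 control, so this recovery is not independent of the list.

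**Figure D5:**
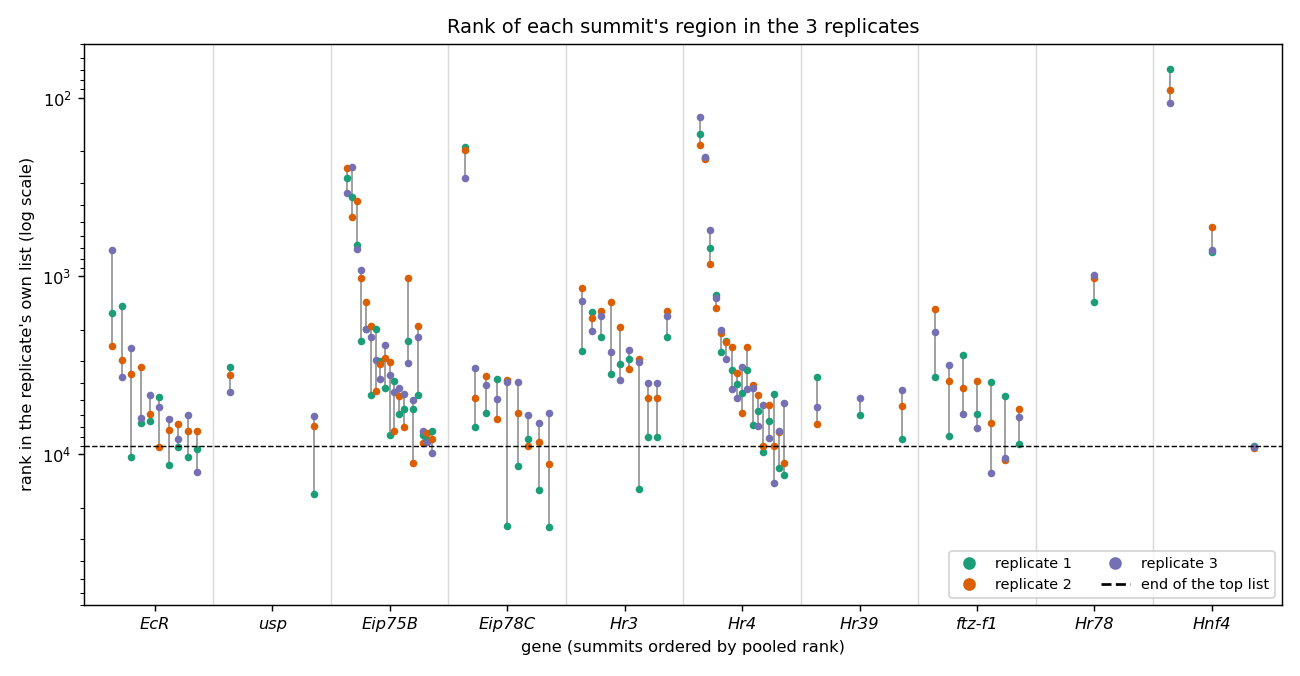
Rank of the strongest region overlapping each of the 81 peaks in the 3 replicates' own lists, on a log scale with the strongest at the top; each vertical line joins the replicates of 1 peak, and peaks run from strong to weak within a gene. The longest lines belong to peaks such as the one of Eip78C with ranks 25456, 3820 and 3921, and some points fall below the dashed end of the top list.

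Short words of sequence were looked for, on either strand, in the 100 bp to each side of a summit. TGACAG is the core bound by TGIF-family homeodomains, and AGGTCA is the half-site of many nuclear receptors, including those of this cascade. The 5 sites printed carry one or the other word inside Eip75B and ftz-f1. The word is in capitals, and the sequences are RefSeq Release 6, 5′ to 3′, on the strand named.
Eip75B intron 3, 3L:18011797-18011856, minus: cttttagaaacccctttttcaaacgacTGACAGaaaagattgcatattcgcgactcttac
Eip75B intron 3, 3L:18033055-18033114, plus: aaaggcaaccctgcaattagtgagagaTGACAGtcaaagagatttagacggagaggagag
Eip75B intron 4, 3L:17978735-17978794, plus: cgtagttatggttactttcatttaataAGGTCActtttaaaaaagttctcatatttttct
Eip75B intron 3, 3L:18003304-18003363, plus: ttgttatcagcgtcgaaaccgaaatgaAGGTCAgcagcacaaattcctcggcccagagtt
ftz-f1 intron 3, 3L:18759343-18759402, plus: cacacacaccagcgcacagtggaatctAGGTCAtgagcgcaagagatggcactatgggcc
The first belongs to the summit at rank 274 and its word lies 74 bp from it. The second lies 6 bp from the summit at rank 5159. The AGGTCA words lie 82 bp from the summit at rank 1727, 83 bp from that at rank 4698 and 0 bp from the ftz-f1 summit at rank 5666. A word is a match of letters in the window and was not tested as a site.

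TGACAG lay near 5 of the 81 summits (6.17%, Wilson 95% interval 2.67 to 13.6), against 8.02% of the windows 1000 bp to each side of them. Over all optimal summits it lay near 7.84%, against 7.06% of their flanks. The 5 were at EcR, Eip75B with 2, Hr4 and, inside CG8671, Hr39, and all were away from promoters. They were 7.69% of the 65 summits there, against 6.15% of the flanks of those and 5.95% of all such optimal summits. At promoters TGACAG lay near 0 of 16, against 15.6% of their flanks and 11.7% of all optimal summits at promoters. AGGTCA lay near 4 of the 81 (4.94%, 1.94 to 12.0), against 5.56% of their flanks, and near 3.69% of all optimal summits, against 4.87% of theirs. The 4 were at Eip75B with 2, Hr4 and ftz-f1. Neither word stood out from its flanks at these genes, at counts this small.

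The longer receptor words were rarer still. TAGGTCA was found near 1 of the 81 summits, at ftz-f1 and within the sequence shown above (1.23%), against 0.978% of all optimal summits. CAAGGTCA was near none, against 0.256%. AGGTCA and TGACCT as an inverted repeat with 1 base between them, the element of EcR and usp, was near none of the 81 summits and none of the whole optimal list. It was also in none of the 17996 flanks of that list, so its absence does not set summits apart from their flanks. A 0 of 81 allows a share of up to 3.70%. The search was for exact letters, and sites with a changed base were not counted.

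The remaining words were general ones. TATAAA lay near 13 of the 65 summits away from promoters (a Wilson 95% interval of 12.1 to 31.3%), against 38.0% of all such optimal summits. At promoters it lay near 9 of the 16 (56.25%, 33.2 to 76.9), against 35.4%, a share inside that interval. Its flanks were at 22.3% for the member summits away from promoters and 23.5% for all such summits. At promoters the flanks were at 28.1% for the members and 20.2% for all. AGTGTA lay near 9 of the 81 (11.1%, 5.96 to 19.8), against 16.9% of all optimal summits, and ACACTG near 6 (7.41%, 3.44 to 15.2), against 16.9%. The flanks of the member summits held these words at 8.02% and 8.64%, and those of all summits at 7.25% and 7.49%. These 2 words were searched because they led the hexamers of the whole list. GAGAG lay near 23 (28.4%, 19.7 to 39.0), against 22.5%, and its flanks differed likewise, at 29.0% for the member summits and 22.7% for all. TATCGATA lay near none, against 2.30% of all optimal summits, 6.25% of those at promoters and 0.395% of those elsewhere. The median GC content within 100 bp was 34.8% around the member summits and 34.3% around all.

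Other genes of the pathway were counted in the same way. Over all protein-coding genes, 55.9% had a summit in such a window and 23.2% a bound promoter. Of 14 ecdysone early genes and coactivators found in the annotation, 13 had a summit and 8 a bound promoter, with 90 summits in all. The density was 1.51 per 10 kb for the receptors and 1.45 for these genes. Their strongest summits were at ImpL2, which binds insulin-like peptides, at rank 171, at E23, a transporter that removes ecdysone from cells, at rank 182, and at MsrA, once named Eip71CD, at rank 285. Eip74EF, an ETS factor of the early class, had 18 summits over 60.7 kb. The exception without a summit was Cyp18a1, which inactivates ecdysone. The symbol EcI was not matched.

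Of the 11 other nuclear receptors, 10 had a summit and 3 a bound promoter, with 25 summits and 0.989 per 10 kb. The median gene length is 36.6 kb for the 10 receptors of the cascade and 8.06 kb for these. The strongest summits ranked 1108 at Hr96, 1135 at knrl and 1140 at Hr38, and tll had none. Of 9 genes of ecdysone synthesis and its control found, 4 had a summit and 1 a bound promoter. They held 12 summits, 0.546 per 10 kb, against 0.672 for the arms. Their strongest were at Ptth, the hormone that drives synthesis, at rank 1731, at shd, which makes the active hormone, at rank 3006, and at sad at rank 3901. Of those 12 summits, 8 lay at shd. None lay at nvd, 76.8 kb long, or spok, 31.7 kb long, where the median length of these genes is 2.52 kb. The empty windows of nvd and spok lower the density of this list, which was not computed without them. The symbol phm was not matched. Beside these lists, 55.9% of all protein-coding genes had a summit and 23.2% a bound promoter. The lists differ in gene length, and no difference between them was tested.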

How the data were processed

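Achi-eGFP ChIP-seq of 3 replicates of whole prepupae was analysed from the authors' lists of regions. Per the deposited file descriptions, every list was made from alignments and 1 shared control, and the optimal list was thresholded by the authors on the irreproducible discovery rate. The aligner and peak caller were not given in the sources used here. The deposited signal value and −log10 q-value are the authors' own, as is the deposited summit offset in bp, a number of another kind. In the optimal list 7035 regions share the maximum of −log10 q. Lists in dm3 coordinates were not used. One label names achi as the antibody target; the description names anti-GFP, which was followed.

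Summits were joined to Ensembl release 115 genes in Python 3.11.15 with numpy 2.4.6, pandas 2.3.3, scipy 1.17.1 and matplotlib 3.10.9, by functions checked on simulated data. A summit was called promoter within 500 bp of a protein-coding start, otherwise by the UTR, then coding exon, then intron it lay in, otherwise as in a noncoding gene or intergenic. All 46 intervals listed again with another summit were kept. Close summits of separate intervals were also counted separately where they shared replicate regions of the same rank, as at Hr3, Eip75B and Hr4. In every member, each promoter was described, with the strongest summit, promoter summit and intron summit, and further summits by range or where replicates diverged; those were chosen after their values were seen. The 10 genes and the lists were chosen with earlier results of these data known, so no test was made and all comparisons are descriptions. Left out in turn were single replicates, weaker peaks and other settings. Spread between replicates is between the labelled biological replicates, and intervals cover counting error only.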

Additional observations from a re-analysis of the deposited data

How the results depend on the processing

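No paired analysis was possible because all samples form 1 group. The 81 summits became 39 in the stronger 50% of peaks. With 1 replicate left out, 59 to 67 lay in the top lists of both others. Members with a summit numbered 10 in each leave-one-out setting, and those with a bound promoter 5. The 8 bound promoters became 5 within 200 bp, 13 within 1000 bp, 5 in the stronger 50% of peaks and 5 to 6 without single replicates. The intron share of 72.8% became 86.6% in gene bodies alone, 79.0% with promoters of 200 bp and 72.9 to 75.4% without single replicates. The median rank percentile of 49.3 became 53.8 to 54.9 without single replicates. By −log10 q it was 60.9, but most peaks of the optimal list tie at the maximum. That value is the place of the tie and says nothing of the members. The share in all 3 top lists, 69.1%, was 33.3% with top lists of 50% of that length and 72.8 to 82.7% in the 2 other lists. TGACAG at 6.17% became 3.70% within 50 bp, 14.8% within 200 bp, 5.13% in the stronger peaks and 4.92 to 6.78% without single replicates. AGGTCA at 4.94% became, in the same order, 1.23%, 8.64%, 2.56% and 4.48 to 6.56%. Wider windows hold more letters, and fewer peaks hold fewer summits, by construction. The 81 summits were not filtered by top list, but the leave-one-out counts were, which lowers them by construction too. The same filter drops weaker summits, which raises the median rank percentile. A share in 2 top lists cannot be below the share in all 3, again by construction. All 3 top lists together held 56 of the 81. Other causes were not tested. No region of the pooled list that lay in all 3 top lists, at either length, was missing from the optimal list in these windows. In the full lists of 30000 regions, 5 promoters without an optimal summit had a region within 500 bp in every replicate. Only 9744, 10649 and 10283 regions of those lists had q of at most 0.01 in replicates 1, 2 and 3. The same share over all promoters was not counted, so the 5 cannot be read as a result about these genes. In all, with those given here, 42 values of the main comparisons under other settings stayed near the main value and 24 moved further. Near meant a move of at most 1.5 times, for a count, or of less than the spread between replicates, for a share or median. The depth of the libraries is unknown, no untagged control was analysed here, and whole animals cannot show in which tissue a region was bound.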
